A study of Mus musculus with 12 samples.

Results

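Among sorted brain myeloid cells, 74 of 26210 kept cell barcodes (0.282%) were monocyte-marked, and 11 of the 12 libraries held at least 1 of them. A barcode was kept when it had at least 300 genes, at least 500 UMIs (unique molecular identifiers, each counting 1 captured transcript) and at most 10% mitochondrial UMIs. A kept barcode was monocyte-marked when at least 3 of Ly6c2, Ccr2, Plac8, Chil3, S100a4 and Vcan had a UMI. It also had to hold fewer than 3 of the border macrophage genes Mrc1, Pf4, Ms4a7, Cd163, Lyve1, Cbr2 and F13a1, and fewer than 3 of the MHC class II genes Cd74, H2-Aa, H2-Ab1 and H2-Eb1. The measured values of these genes therefore chose the barcodes, and the values of rule genes, Cd74 and Chil3 included, are given as a description and not as tests, also where they stand among the calls of a fit over all genes.

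Monocytes are circulating white blood cells made in the bone marrow. The classical subset carries the surface protein Ly6C and the chemokine receptor Ccr2, which it uses to leave the marrow and enter tissue, while the nonclassical subset patrols the vessel wall. Microglia, the resident macrophages of the brain, are seeded before birth and are maintained without blood monocytes in the healthy adult, so monocytes in a brain preparation may come from blood left in vessels, from the borders or from the tissue itself.

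The series asked how the method used to isolate brain cells changed their transcripts. Each library was 1 male C57BL/6J mouse at postnatal day 90. The whole brain was processed after perfusion with cold buffer and removal of as much of the meninges as possible, and live cells positive for both CD45 and CD11b were sorted for 10x Genomics 3′ sequencing. There were 3 mice in each of 4 groups, which were cold Dounce homogenisation without inhibitors (DNC-NONE, replicates 1, 2 and 3), cold Dounce with inhibitors (DNC-INHIB, replicates 4, 5 and 6), enzymatic digestion without inhibitors (ENZ-NONE, replicates 4, 5 and 6) and enzymatic digestion with inhibitors (ENZ-INHIB, replicates 1, 2 and 3). The digestion was warm while tissue and cells were otherwise kept on ice, so enzyme and warmth cannot be told apart. The inhibitors were actinomycin D and triptolide, which block transcription, and anisomycin, which blocks translation. The sort took any CD45+ CD11b+ cell, so neutrophils, border macrophages and dendritic cells could pass it with monocytes and microglia, and whether the gate passed monocytes alike after both preparations was not tested.

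The libraries held 2118143 to 3654465 UMIs and 1700 to 2622 kept barcodes. The other kept barcodes had median UMIs of 912 to 1506 per library, against a median of 1988.5 (range 1061 to 5007) over the monocyte-marked barcodes. DNC-NONE replicate 1 stood apart from the other cold preparations in a dissociation signature described further on. Of its other barcodes with at least 1000 UMIs, thinned to that number, 9.87% carried it, against 0.937% and 0.788% in DNC-NONE replicates 2 and 3. A total of 503 barcode sequences occurred in more than 1 library, and 1 monocyte-marked barcode was among them.

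The rule genes separated the chosen barcodes widely from the rest, as the rule required. Plac8 had a UMI in 72 of 74 barcodes, Ccr2 in 66, Ly6c2 in 61, Chil3 in 50, the calcium-binding protein gene S100a4 in 37 and the matrix proteoglycan gene Vcan in 17. In CPM, the UMIs of a gene summed over barcodes and scaled to a common total, Ly6c2 was at 1141 against 2.47 in the other barcodes and Ccr2 at 2134 against 26.1. Chil3, which encodes a chitinase-like lectin of myeloid cells, was at 2785 against 9.52 CPM. In the other barcodes 0.12% had a Ly6c2 UMI and 1.37% a Ccr2 UMI. The near-identical genes Ly6c1 and Chil4 had 0 UMIs in the monocyte-marked barcodes, although the assignment of reads between such copies is uncertain. On GRCm38, Ly6c2 lies at chr15:75108158-75111970 on the minus strand and Ccr2 at chr9:124101950-124113557 on the plus strand.

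The rule genes also varied among libraries. Ccr2 stood at 2331, 1928 and 830 CPM in DNC-NONE replicates 1, 2 and 3, at 4399, 2275 and 2781 CPM in DNC-INHIB replicates 4, 5 and 6, at 1036, 2174 and 1890 CPM in ENZ-NONE replicates 4, 5 and 6, and at 3445 and 2733 CPM in ENZ-INHIB replicates 1 and 2. Ly6c2 ranged from 214 CPM in DNC-NONE replicate 2, where it rested on 1 UMI, to 1466 CPM in DNC-INHIB replicate 4, where it rested on 2. Both genes were present in all 11 libraries, and their ranges overlapped among the groups.

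Of the 74 barcodes, 21 had exactly 3 of the 6 rule genes, 29 had 4, 20 had 5 and 4 had all 6. The most frequent combination was Ly6c2, Ccr2, Plac8 and Chil3 in 13 barcodes. Barcodes just inside the threshold carried a median of 11 of 20 further classical monocyte genes, against a median of 7 in the 35 barcodes with exactly 2 rule genes. Of those 35 barcodes, 13 carried at least 3 neutrophil genes, and their median was 1254 UMIs, against 1670 just inside. Another 17 barcodes had at least 3 rule genes but were set aside because they held at least 3 MHC class II genes, and with them the share would have been 0.347% of kept barcodes.

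Further genes of classical monocytes, which the rule did not use, were detected beside the rule genes. All 74 barcodes held at least 6 of the 20 further classical genes, with a median of 12. They include 3 barcodes with neutrophil genes, described below, so this count does not separate monocytes from neutrophils. The 17 barcodes set aside for MHC class II genes also held at least 6. Lyz2, which encodes lysozyme, was present in all 74 at 42599 CPM, against 881 CPM in the other barcodes, of which 35.2% had a UMI. Related cells carried these genes too. In kept barcodes with at least 3 border macrophage genes, or at least 3 MHC class II genes instead, Lyz2 stood at 13096 and 12345 CPM. The 20 genes together stood at 15759 and 16422 CPM there, against 58786 CPM in the monocyte-marked barcodes. The galectin gene Lgals3 was present in 70 barcodes, Ms4a6c in 71, S100a6 in 68, the haptoglobin gene Hp in 61 and Ifitm6 in 58. Cd14 of the same list went the other way, at 148 CPM in 14 barcodes against 736 CPM in the others, of which 54.4% had a UMI. The 16 nonclassical genes together reached 1309 CPM against 697 in the other barcodes, and the gene with most UMIs was Gngt2, at 599.5 against 307 CPM. At least 3 nonclassical genes were held by 11 barcodes, and Cd300e, Fabp4, Eno3 and Dusp16 of that list were at 0.

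Genes of other cell types were present to differing degrees. The 11 microglial genes summed to 1193 CPM, against 38691 CPM in the other barcodes, and 17 barcodes had none of them. In DNC-NONE replicate 1, 2 barcodes held 8 of the 11 each. Of the 7 border macrophage genes, Mrc1, Cd163, Lyve1 and Cbr2 were at 0, while F13a1, a coagulation factor subunit that monocytes also express, had 172 UMIs in 59 barcodes. The red blood cell genes Hbb-bs, Hbb-bt, Hba-a1, Hba-a2 and Alas2 were at 0, and all 5 list members were in the files. Dendritic cell genes summed to 58.0 CPM with Cd209a, Xcr1, Zbtb46 and Ccr7 at 0, and lymphocyte genes to 226 CPM with Cd3e, Cd79a and Ms4a1 at 0.

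Against the label, 3 of the 74 barcodes carried neutrophil granule genes. All 3 came from DNC-NONE replicate 3, with 7 or 8 of 11 neutrophil genes each. They held every UMI of Ngp (1203), S100a9 (678), Camp (648), Ltf (134) and Lcn2 (72) found among the 74, and 1390 of 1403 UMIs of S100a8. They met the rule without Ccr2, which had 0 UMIs in them, and they held 119 of the 432 Chil3 UMIs. The neutrophil list stood at 27011 CPM over the 74 barcodes and at 401 CPM without these 3. The collagenase gene Mmp8, listed as a neutrophil gene, was by contrast spread over 29 barcodes with 45 UMIs. Results that involve DNC-NONE are therefore given below with and without these 3 barcodes wherever the call changed. In the map of marker UMIs by barcode, the 3 columns stand out in the lowest block.

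**Figure D1:**
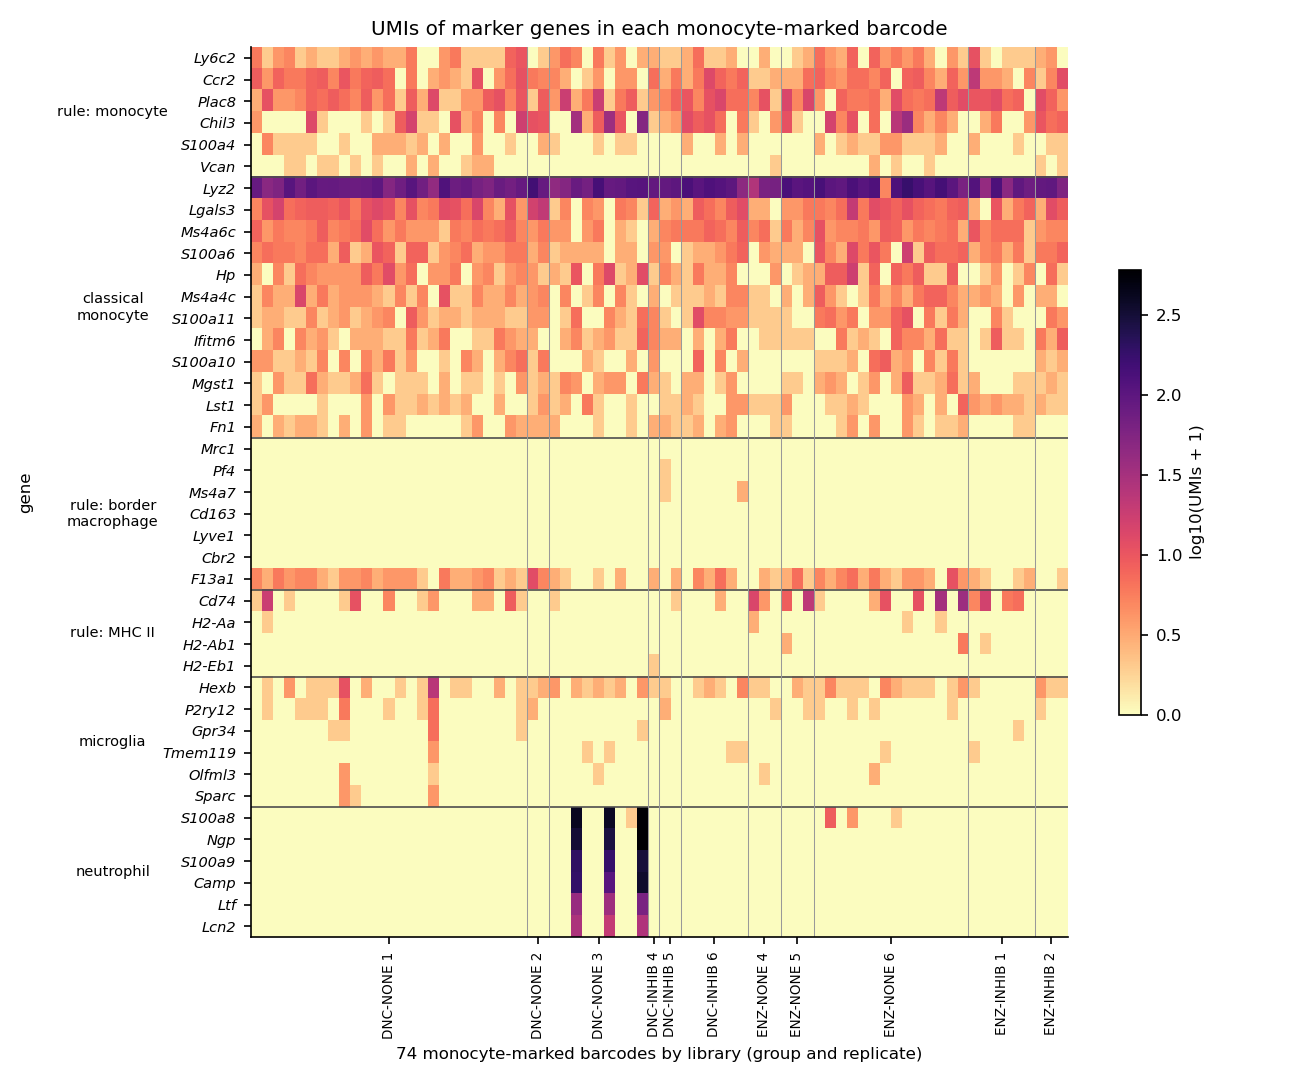
Each of the 74 columns is 1 monocyte-marked barcode, ordered by library, and each row is a gene, with colour giving log10 of UMIs plus 1. Lyz2 is present in all 74 columns, the border macrophage genes other than F13a1 are almost empty, and 3 columns of DNC-NONE replicate 3 carry the neutrophil genes.

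Proliferation was rare. At least 3 of 8 cell cycle genes were found in 5 barcodes, 2 of them neutrophil-marked. The mitochondrial share had a median of 2.43% over the 74 barcodes and was at most 4.37%, while the medians of the other barcodes lay between 0.852% and 1.17% in every library.

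Outside the rule, Lgals3, Hp, Wfdc17, S100a6 and Crip1 had the highest ratios to other barcodes. The measure was the median over 11 libraries of the log2 ratio of CPM plus 10, and since the rule had chosen within this contrast it was not tested. The median log2 ratio was 6.27 for Lgals3, 6.24 for Hp, 6.14 for Wfdc17, 6.14 for S100a6 and 6.10 for Crip1. Next came Anxa2 at 5.83, Ifitm2 at 5.76, Ifitm3 at 5.63 and Anxa1 at 5.62. Anxa1 and Anxa2 encode annexins, which bind phospholipid membranes, and Ifitm2 and Ifitm3 encode membrane proteins that restrict viral entry and belong to a family of similar sequence. Of the 25 genes with the highest ratios, 18 were higher in every one of the 11 libraries. The other 7 were Mgst1, Vim, Gda, Sirpb1c, Emilin2, Fn1 and Mcemp1, each with 0 UMIs in at least 1 shallow library. Cybb, the catalytic subunit of the phagocyte oxidase, stood at 716 against 11.7 CPM, and Fn1, fibronectin, at 425 against 1.16 CPM. Some of these genes were shared with the border macrophage-marked and MHC class II-marked barcodes. Wfdc17 stood at 3488 CPM in the monocyte-marked barcodes and at 1698 and 900 CPM in those. Ifitm2 stood at 3275, 1192 and 909 CPM, whereas Hp stood at 1612, 5.96 and 14.7 CPM.

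The genes with the lowest ratios included Tmem119, P2ry12, Fcrls and Gpr34, which are widely used to mark microglia. The median log2 ratio was -8.53 for Tmem119, -7.90 for Fcrls, -7.87 for Gpr34, -7.78 for Sparc and -7.57 for Olfml3. The purinergic receptor gene P2ry12 stood at 187 CPM in the monocyte-marked barcodes against 7539 CPM in the others, and the complement gene C1qc at 367 against 10381 CPM. All 10 genes of this set were lower in every one of the 11 libraries. The plot of ratios by gene shows the spread over libraries.

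**Figure D2:**
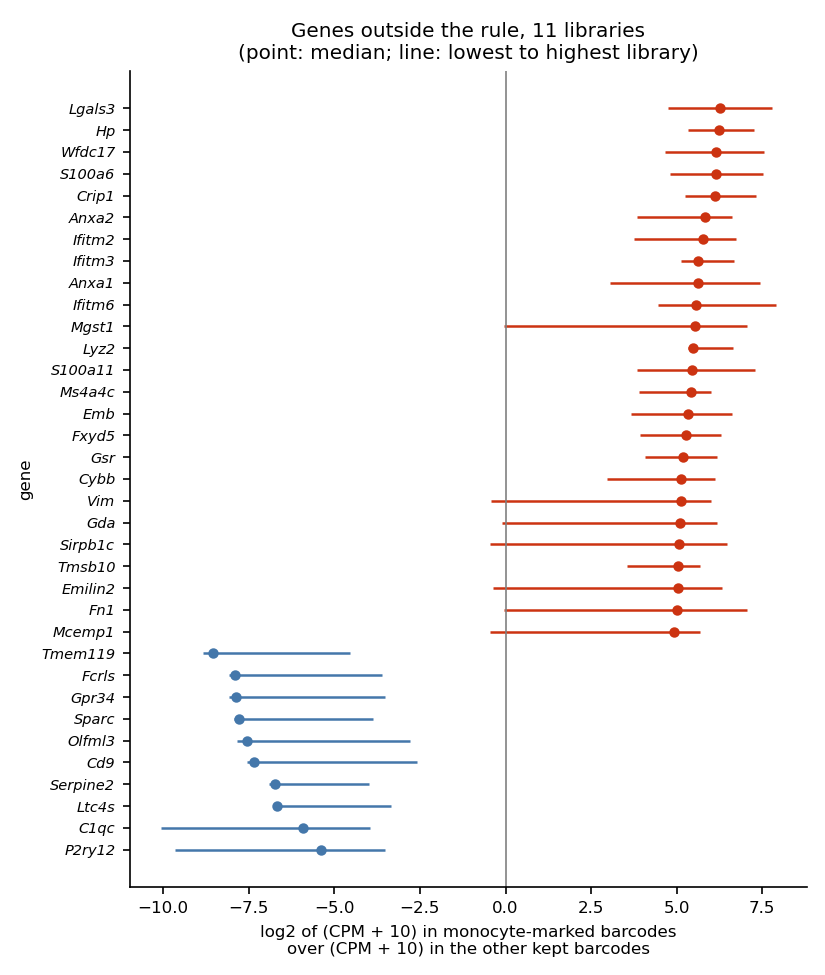
For each gene the point is the median over 11 libraries of the log2 ratio of CPM plus 10 in monocyte-marked over other kept barcodes, and the line runs from the lowest to the highest library. Points run from 6.27 for Lgals3 down to -8.53 for Tmem119, and the 7 lines of the upper set that pass below 0 belong to genes with 0 UMIs in at least 1 library.

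Trafficking genes lay on both sides. The integrin subunit gene Itgb7 was at 245 against 4.67 CPM, the hyaluronan receptor gene Cd44 at 297 against 2.78 CPM and the chemokine receptor gene Ccr1 at 232 against 23.9 CPM. The P-selectin ligand gene Selplg and the fractalkine receptor gene Cx3cr1, both abundant in microglia, were lower, at 490 against 5749 CPM and at 251 against 2427 CPM. Itgb2, the shared beta subunit of leukocyte integrins, was near equal at 406 against 400 CPM.

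Among chemokines, Ccl6 and Ccl9 had the most UMIs in the monocyte-marked barcodes. Ccl6 stood at 2553 against 294 CPM and Ccl9 at 1115 against 204 CPM. Ccl12 had 1 UMI against 273 CPM in the other barcodes, and Ccl7, Cxcl2 and Tnf were at 0. Ccl3 and Ccl4, chemokines of activated microglia, had 6 and 5 UMIs in all, of which 5 and 5 lay in ENZ-NONE barcodes. The Ccl4 UMIs came from 1 library. Among lineage transcription factors, Cebpb was at 2675 against 586 CPM and Klf2 at 838 against 181 CPM, while the myeloid factor Spi1 was near equal at 516 against 462 CPM. Irf8 stood at 232 against 762 CPM and Mef2c at 77.4 against 908 CPM, and Sall1, a factor of microglial identity, had 1 UMI. Among interferon-stimulated genes, Ifi27l2a stood at 1425 against 35.4 CPM, whereas Bst2 was alike at 168 against 164 CPM.

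The share of monocyte-marked barcodes was compared between preparations with 1 value per mouse. It was 1.03% in DNC-NONE replicate 1 (25 barcodes, exact 95% binomial interval 0.666 to 1.51%), 0.0885% in replicate 2 (2 barcodes) and 0.351% in replicate 3 (9 barcodes). In DNC-INHIB it was 0.0438%, 0.0769% and 0.229% in replicates 4, 5 and 6, from 1, 2 and 6 barcodes. In ENZ-NONE it was 0.144%, 0.176% and 0.714% in replicates 4, 5 and 6, from 3, 3 and 14 barcodes. In ENZ-INHIB it was 0.292% and 0.164% in replicates 1 and 2, from 6 and 3 barcodes, and replicate 3 had 0 of 1818 barcodes, for which a limit of 3 counts allows a share of up to 0.165% and the exact interval, which the plot uses, reaches 0.203%. The intervals and limits cover counting error only. The groups overlapped, and DNC-NONE replicate 1 with ENZ-NONE replicate 6 held 39 of the 74 barcodes.

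No difference in share passed the test. Enzymatic libraries averaged 0.248% ± 0.247 (SD, n = 6) and Dounce libraries 0.303% ± 0.373 (SD, n = 6), a difference of -0.0543 percentage points (exact two-sided permutation test, p = 0.740, adjusted p = 0.740 over 3 comparisons). Without DNC-NONE replicate 1 that difference turned to 0.0906. Libraries without inhibitors averaged 0.417% ± 0.376 and those with inhibitors 0.134% ± 0.113 (SD, n = 6 each), a difference of 0.283 percentage points (exact two-sided permutation test, p = 0.106, adjusted p = 0.318). The labels assign each library to 1 of 2 batches and do not say what a batch was. The difference was 0.191 percentage points within batch 1 (4 libraries against 2) and 0.415 within batch 2 (2 against 4), and it fell to 0.161 without DNC-NONE replicate 1. ENZ-NONE averaged 0.345% ± 0.320 (SD, n = 3) against 0.252% ± 0.313 (SD, n = 9) in the other libraries, a difference of 0.0925 (exact two-sided permutation test, p = 0.691, adjusted p = 0.740). Without ENZ-NONE replicate 6 it turned to -0.0922, and the within-batch values were -0.203 in batch 1 and 0.550 in batch 2, where ENZ-NONE had 1 library. The enzymatic minus Dounce difference was -0.182 in batch 1 and 0.0737 in batch 2, with 3 libraries on each side.

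A barcode with more UMIs had more chances to meet the rule, so shares were also taken after barcodes with at least 1000 UMIs were thinned to that number. Shallower barcodes were left out, so that 856 of 2261 kept barcodes remained in DNC-NONE replicate 2 and 1839 of 2434 in replicate 1. The difference between libraries without and with inhibitors was then 0.311 percentage points (exact two-sided permutation test, p = 0.0693, adjusted p = 0.208), with 0.469% ± 0.371 against 0.157% ± 0.131 (SD, n = 6 each). The enzymatic minus Dounce difference was -0.113 and the ENZ-NONE minus other difference 0.0237. Thinning to 500 UMIs, which left out no kept barcode, gave a difference between libraries without and with inhibitors of 0.135 percentage points (exact two-sided permutation test, p = 0.147, adjusted p = 0.442).

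**Figure D3:**
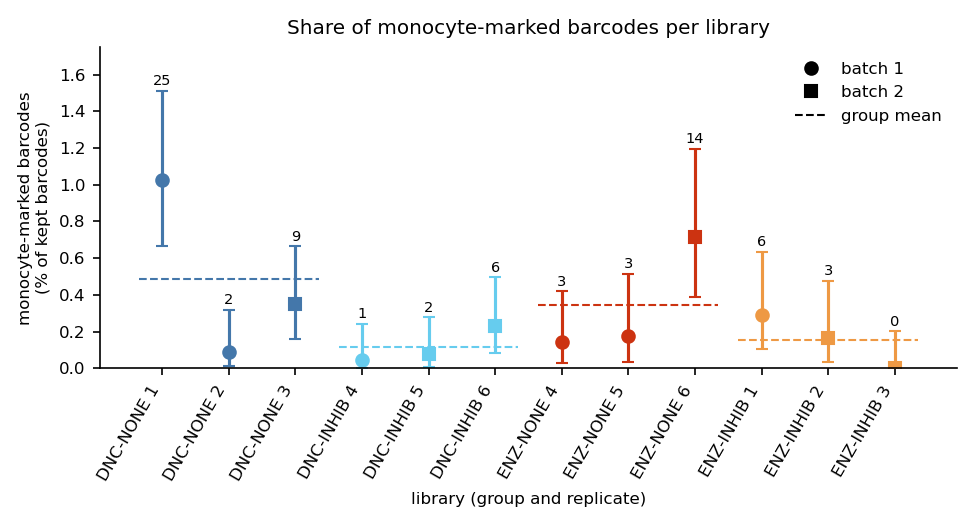
Points give the percentage of kept barcodes that were monocyte-marked in each of 12 libraries, with exact 95% binomial intervals, the number of barcodes above each interval and dashed lines at group means. DNC-NONE replicate 1 at 1.03% and ENZ-NONE replicate 6 at 0.714% lie above all others, and the groups overlap.

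Transcript levels were compared on UMIs summed over the monocyte-marked barcodes of each library, which makes the mouse the replicate. The fit held 11 libraries because ENZ-INHIB replicate 3 had no such barcode. The sums ranged from 1364 to 53196 UMIs, so 1 UMI was worth between 18.8 and 733 CPM, and only 660 genes passed the filter on low counts. A gene was called at an edgeR adjusted p under 0.05 with an absolute log2 fold change above 0.58.

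In the monocytes of ENZ-NONE mice, 7 immediate early genes were called higher than in the mean of the other preparations, and DESeq2 called 3 of them. Against the mean of the other 3 groups, 8 of 660 genes (1.21%) were called, all of them higher. The 8 were Fos, Dusp1, Junb, Jun, Jund, Btg2, Zfp36 and Cd74. Of the 7 immediate early genes all but Junb, Fos and Dusp1 included, passed the filter on low counts only through their ENZ-NONE values. Their p-values below are thus those of genes that were tested because they were high in that group. Fos, Jun, Junb and Jund encode subunits of the AP-1 transcription factor, Dusp1 a phosphatase that switches off MAP kinases, Zfp36 a protein that promotes decay of cytokine mRNAs and Btg2 a growth-restraining factor. Cd74 encodes the invariant chain of MHC class II and was also 1 of the genes used to set barcodes aside, so its values are a description although the fit called it.

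Fos stood at 2332, 8261 and 3419 CPM in ENZ-NONE replicates 4, 5 and 6, from 9, 38 and 123 UMIs. It stood at 376, 0 and 0 CPM in DNC-NONE, at 0, 325 and 146 CPM in DNC-INHIB and at 209 and 683 CPM in ENZ-INHIB. All 3 ENZ-NONE libraries lay above all 8 others. The log2 fold change was 4.10 ± 0.44 (SE, edgeR quasi-likelihood, Benjamini-Hochberg adjusted p = 1.2e-17). Fos had a UMI in 17 of 20 ENZ-NONE barcodes and in 12 of the 54 others, at median depths of 2054 and 1973 UMIs. Fos lies at chr12:85473890-85477273 on the plus strand of GRCm38 and overlaps no other annotated gene.

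Dusp1 stood at 3627, 1522 and 2279 CPM in ENZ-NONE and at 169, 0 and 0 CPM in DNC-NONE. It was at 0 in all 3 DNC-INHIB libraries and at 418 and 683 CPM in the 2 ENZ-INHIB libraries. The groups did not overlap, and the log2 fold change was 4.77 ± 0.61 (SE, edgeR adjusted p = 2.1e-12). Against the floor of 3 counts over the DNC-INHIB group, pooled Dusp1 in ENZ-NONE was at least 14.0-fold higher.

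The other AP-1 subunits were also highest on average in ENZ-NONE. Jun stood at 1036, 1087 and 639 CPM in ENZ-NONE, at 150, 0 and 0 CPM in DNC-NONE, at 0 throughout DNC-INHIB and at 0 and 171 CPM in ENZ-INHIB (log2 fold change 4.26 ± 0.91, SE, edgeR adjusted p = 4.1e-04). Jund stood at 1295, 435 and 862 CPM in ENZ-NONE, at 282, 0 and 51.9 CPM in DNC-NONE, at 0 throughout DNC-INHIB and at 313 and 171 CPM in ENZ-INHIB (3.40 ± 0.80, SE, edgeR adjusted p = 1.9e-03). For both genes ENZ-NONE lay above every other library. Junb stood at 2332, 3913 and 1362 CPM in ENZ-NONE, at 921, 0 and 104 CPM in DNC-NONE, at 1466, 0 and 146 CPM in DNC-INHIB and at 313 and 171 CPM in ENZ-INHIB (2.77 ± 0.49, SE, edgeR adjusted p = 3.1e-06). The 1466 CPM of DNC-INHIB replicate 4 came from 2 UMIs in its only barcode and lay above ENZ-NONE replicate 6, so Junb overlapped between groups.

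Btg2 stood at 1036, 652 and 667 CPM in ENZ-NONE and at 132 CPM or below in the other 8 libraries, with a log2 fold change of 4.12 ± 0.95 (SE, edgeR adjusted p = 1.6e-03). Zfp36 stood at 1036, 652 and 389 CPM in ENZ-NONE and at 214 CPM or below elsewhere, with a log2 fold change of 3.89 ± 1.05 (SE, edgeR adjusted p = 0.018). Both calls rested on single libraries. Without ENZ-NONE replicate 6 the adjusted p was 0.0794 for Btg2 and 0.0689 for Zfp36, and Zfp36 also missed the threshold without ENZ-NONE replicate 4 (0.107) or without DNC-INHIB replicate 6 (0.103). Jund fell below the filter on low counts without ENZ-NONE replicate 6. DESeq2 called Fos, Dusp1 and Junb, and gave adjusted p-values of 0.0704 for Jun, 0.0704 for Btg2, 0.295 for Jund and 0.250 for Zfp36.

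Cd74, a rule gene, stood at 4145, 6304 and 2474 CPM in ENZ-NONE replicates 4, 5 and 6, at 959, 0 and 51.9 CPM in DNC-NONE, at 0, 325 and 146 CPM in DNC-INHIB and at 3132 and 0 CPM in ENZ-INHIB. ENZ-INHIB replicate 1 lay above ENZ-NONE replicate 6, so the groups overlapped. The fitted log2 fold change was 2.83 ± 0.42 (SE). It is given with no test, since barcodes with 3 or more MHC class II genes had been set aside, from 0 to 6 of them per library. Its UMIs sat in 10 of 20 ENZ-NONE barcodes and in 19 of the 54 others, with up to 35 UMIs in a single ENZ-NONE barcode. In the other kept barcodes of the ENZ-NONE mice Cd74 stood at 1574, 1169 and 1560 CPM, below the monocyte sum of the same mouse each time. The MHC class II genes H2-Aa, H2-Ab1 and H2-Eb1 had 5, 8 and 1 UMIs over all 74 barcodes.

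**Figure D4:**
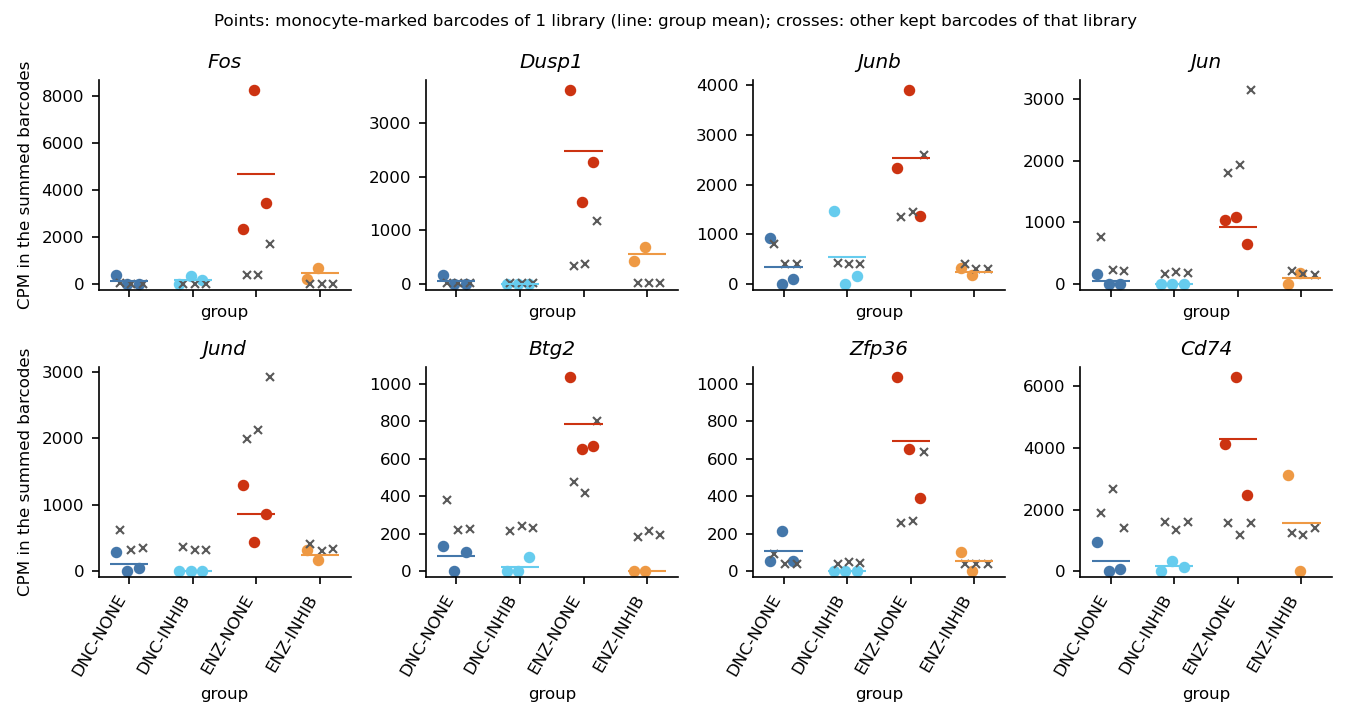
Each panel is 1 of the 8 called genes, with filled points for the CPM of the monocyte-marked barcodes summed in 1 library, lines at group means and crosses for the other kept barcodes of the same library. The 3 ENZ-NONE points lie above the points of every other library for Fos, Dusp1, Jun, Jund, Btg2 and Zfp36, and overlap them for Junb and Cd74.

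The wider lists placed these calls. Of 18 immediate early genes 10 were tested and 7 were called higher, against a share of 1.21% of all 660 genes. Most of the called genes passed the filter on low counts only through ENZ-NONE. The filter asked for a level worth 3 counts in a sum of 5854 UMIs, the median depth, in at least 2 libraries. Outside ENZ-NONE only Junb reached that level in as many, and Fos, Dusp1, Jun, Jund, Btg2 and Zfp36 did not. Jun and Zfp36, with 9 and 6 UMIs in the 8 other libraries, also missed the required total of 10 there. The count is therefore a description of the genes that could be tested. The 3 tested members that were not called were Klf2, Ier2 and Ier5. Klf2 stood at 1295, 1304 and 1557 CPM in ENZ-NONE and at 940 CPM or below in every other library, but its log2 fold change of 1.33 had an edgeR adjusted p of 0.249. Ier2 and Ier5 had log2 fold changes of 0.75 and 1.76 (edgeR adjusted p = 0.998 for each). Of 11 heat shock genes 3 were tested and none was called, with a median of 0.54. Of 20 classical genes 17 were tested and none was called (median 0.04). For the rule genes Ccr2 and Ly6c2 the fitted log2 fold changes were -0.50 ± 0.39 and -0.09 ± 0.46 (SE), given with no test. The 4 tested interferon-stimulated genes and the chemokine genes Ccl6 and Ccl9 were not called either.

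The pairwise comparisons used the same fit and share their ENZ-NONE libraries. Against ENZ-INHIB, 2 of 660 genes (0.303%) were called, both higher in ENZ-NONE. These were Fos with a log2 fold change of 3.44 ± 0.67 (SE, edgeR adjusted p = 2.04e-04) and Junb with 3.09 ± 0.77 (SE, edgeR adjusted p = 0.0226). With 2 ENZ-INHIB libraries the Fos call was lost without ENZ-NONE replicate 5 or without either ENZ-INHIB library, with log2 values from 2.86 to 4.25 over all libraries left out in turn. The Junb call was lost in 6 of the 11 such fits, without DNC-INHIB replicate 4 or 5, ENZ-NONE replicate 4 or 5 or either ENZ-INHIB library. Against DNC-INHIB, 6 of 660 genes (0.909%) were called, all higher in ENZ-NONE, namely Fos, Dusp1, Cd74, Junb, Jun and Jund. Jun, Jund and Dusp1 had 0 UMIs in 18105 DNC-INHIB UMIs, and against a floor of 3 counts over that group pooled Jun was at least 4.35-fold and pooled Jund at least 5.16-fold higher. Fos there had a log2 fold change of 4.75 ± 0.73 (SE, edgeR adjusted p = 5.2e-08). DESeq2 called 1 gene, Dusp1, against DNC-INHIB and 0 genes against ENZ-INHIB, so it called Fos in neither comparison. Fos, Dusp1, Jun and Jund passed the filter on low counts only through ENZ-NONE. With batch as a covariate Jun was lost (6.23, edgeR adjusted p = 0.066) and 5 genes were called. Here the Jun call was lost in 7 of the 11 fits, without any 1 of the DNC-INHIB or ENZ-NONE libraries or ENZ-INHIB replicate 1. Junb was lost in 4, without DNC-INHIB replicate 5 or 6, ENZ-NONE replicate 5 or ENZ-INHIB replicate 1, and Jund without DNC-INHIB replicate 6.

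Against DNC-NONE, 5 of 660 genes (0.758%) were called. Fos (4.11 ± 0.54), Dusp1 (4.19 ± 0.63), the rule gene Cd74 (2.74 ± 0.48) and Junb (1.93 ± 0.52) were higher in ENZ-NONE on the log2 scale (SE). DESeq2 called 2 genes, Fos and Dusp1. Hmgb2, which encodes a chromatin protein abundant in dividing cells, was lower at -2.34 ± 0.56 (SE, edgeR adjusted p = 0.0057). The DNC-NONE mice had 20, 19 and 38 of its UMIs and the DNC-INHIB mice 0, 0 and 19. The ENZ-NONE mice had 0, 0 and 22 and the ENZ-INHIB mice 2 and 5, so the groups overlapped. Without the 3 neutrophil-marked barcodes Hmgb2 stood at -1.46 with an edgeR adjusted p of 0.881. Junb was also no longer called then (1.81, edgeR adjusted p = 0.0742), while Fos, Dusp1 and Cd74 were. With libraries left out in turn, Hmgb2 was lost in 6 of 11 fits, without DNC-NONE replicate 2 or 3, DNC-INHIB replicate 4, ENZ-NONE replicate 4 or 5 or ENZ-INHIB replicate 1. Junb was lost in the same 6 and without ENZ-INHIB replicate 2.

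The remaining comparisons asked whether inhibitors or digestion changed the monocytes apart from the ENZ-NONE response. Between DNC-NONE and DNC-INHIB edgeR called 0 of 660 genes (0%) and DESeq2 0, while 24 had an unadjusted edgeR p under 0.05. With batch as a covariate edgeR called 3, which were Anxa1, Emp3 and the rule gene Chil3, all higher in DNC-NONE. Between ENZ-INHIB and DNC-NONE edgeR called 0 (0%) and DESeq2 0, while 36 had an unadjusted edgeR p under 0.05. Between ENZ-INHIB and DNC-INHIB, 1 of 660 genes (0.152%) was called. It was the rule gene Cd74, with a fitted difference of 3.41 ± 0.82 on the log2 scale (SE) given with no test, and all 30 of its ENZ-INHIB UMIs came from replicate 1. Without that library the difference turned to -4.09, from an arm of 1 library whose spread was taken to be that of the other groups. With batch as a covariate edgeR called 0 genes here.

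The change in ENZ-NONE was also set against that of the other kept barcodes of the same mice, which were mostly microglia. A model with both sums of each library called 3 of 660 genes (0.455%) for a different response. Of these, Cd74 and Chil3 are rule genes and are described with no test. The fitted difference for Cd74 was 3.01 ± 0.45 (SE), against log2 fold changes of 2.83 in the monocytes and -0.08 in the other barcodes when each was fitted alone. With libraries left out in turn the Cd74 difference ran from 2.53 to 7.37. Chil3 had a fitted difference of 2.98 ± 0.73 (SE), with fitted log2 fold changes of -0.34 in the monocytes and -3.50 in the other barcodes, where it stood at 70.3 CPM or below, and the difference was -0.0137 once the other sums were thinned to the monocyte depth.

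Fos changed less in the monocytes than in the other barcodes on the fitted scale, with a difference of -3.13 ± 0.71 (SE, edgeR adjusted p = 0.0046). Its log2 fold change was 4.10 in the monocytes and 7.80 in the others. Fos entered this fit only through its ENZ-NONE level in the monocytes. In CPM the monocyte level in ENZ-NONE was higher in each mouse, at 2332, 8261 and 3419 against 378, 363 and 1692. Outside ENZ-NONE the other barcodes stood between 0.363 and 28.4 CPM, while 1 UMI in a monocyte sum was worth 18.8 to 733 CPM. After thinning of the other sums the difference was -2.77 with an adjusted p of 1, and without DNC-NONE replicate 1 it was -0.89 with an edgeR adjusted p of 0.998. The call was also lost without DNC-INHIB replicate 6, ENZ-NONE replicate 6 or ENZ-INHIB replicate 2. The other 6 genes called in ENZ-NONE, Dusp1, Junb, Jun, Jund, Btg2 and Zfp36, were not called for a different response. Their log2 fold changes in the other barcodes were 6.55, 2.10, 3.30, 2.68, 1.30 and 3.12. Their fitted differences, in that order, were 0.33 ± 2.79, 0.74 ± 0.51, 2.87 ± 2.25, 2.58 ± 2.33, 4.70 ± 1.54 and 2.53 ± 2.73 (SE). All were positive, unlike that of Fos, as were 7 of the 10 tested immediate early genes. With such SEs a missed threshold does not show a like response.

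A 19-gene dissociation list that the study drew from another mouse dataset of all brain cell types gave a summed level per library. The genes are those of the study's list for scoring cells, which is slightly longer than the signature its text describes. It took 1.19%, 1.76% and 1.01% of monocyte UMIs in ENZ-NONE replicates 4, 5 and 6. The DNC-NONE mice had 0.237%, 0.0214% and 0.0311%, and the DNC-INHIB mice 0.220%, 0.0975% and 0.0439%. The ENZ-INHIB mice with such barcodes had 0.146% and 0.239%. The ENZ-NONE libraries lay above all others, with group means of 1.32% ± 0.391 (SD, n = 3) against 0.0965% ± 0.122 in DNC-NONE and 0.193% ± 0.0658 (SD, n = 2) in ENZ-INHIB. In the other barcodes of the ENZ-NONE mice the list took 0.628%, 0.589% and 1.33%, so the monocytes lay above them in replicates 4 and 5 and below them in replicate 6. In the border macrophage-marked barcodes of the same mice it took 0.893%, 1.92% and 2.05%, from 4, 4 and 14 barcodes. In the MHC class II-marked barcodes it took 1.78%, 0.806% and 1.69%, from 18, 18 and 25 barcodes. Of the list, 7 genes could be tested in the monocytes and 6 were called higher. All of these 6 but Junb passed the filter only through ENZ-NONE, so the count is a description and not support. These 6 genes also held most of the list's UMIs in the ENZ-NONE monocytes. The summed level therefore largely restates their calls and is a description too, not separate support. The count by barcode below uses the same list, so it is not separate support either. A 25-gene list that the study derived from these same sorted cells had 8 genes tested and 6 called higher, and it is not independent evidence of a direction. Rgs1, a member of both lists, had 0 UMIs in the monocyte-marked barcodes.

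Counted by barcode, after thinning to 1000 UMIs, 4 or more of the 19 genes were detected in 12 of 20 ENZ-NONE monocyte-marked barcodes. These were 3 of 3 in replicate 4, 3 of 3 in replicate 5 and 6 of 14 in replicate 6. Among the 54 barcodes of the other groups 2 met this count, both in DNC-NONE replicate 1. Among the other kept barcodes of the ENZ-NONE mice that had at least 1000 UMIs, the shares were 28.4%, 29.0% and 57.6%. The heat shock list took 0.495% ± 0.161 (SD, n = 3) of monocyte UMIs in ENZ-NONE against 0.304% ± 0.165 in DNC-NONE.

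**Figure D5:**
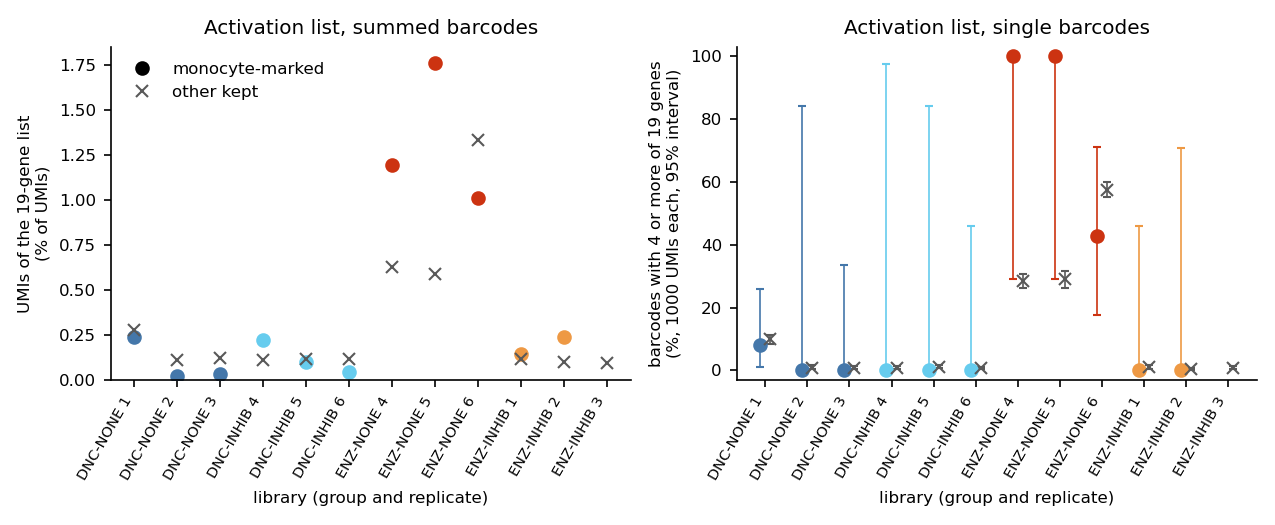
The left panel gives the percentage of UMIs from the 19-gene list in the monocyte-marked barcodes (filled points) and in the other kept barcodes (crosses) of each library, and the right panel the percentage of barcodes with 4 or more of the 19 genes after thinning to 1000 UMIs, with exact 95% binomial intervals. The 3 ENZ-NONE libraries lie between 1.01% and 1.76% on the left, above every other library, and ENZ-INHIB replicate 3 has no monocyte point.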

How the data were processed

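Single-cell libraries of 12 mice were analysed. The authors deposited raw UMI counts per gene and barcode, made per the labels with the 10x Genomics 3′ version 2 kit, bcl2fastq and Cell Ranger 3.0.0 on mm10 (GRCm38), and Seurat is named among their tools. Barcodes with at least 300 genes, 500 UMIs and at most 10% mitochondrial UMIs were kept, and no doublet caller was run, so barcodes with markers of another cell type were counted instead. CPM were computed from counts summed per library. The sums were tested with edgeR 4.0.16 (quasi-likelihood, TMM) and with DESeq2 1.42.0 as an alternative. Genes needed a level worth 3 counts at the median depth in enough libraries, and 10 counts in total. Thresholds were an adjusted p of 0.05 and a log2 fold change of 0.58. Shares were tested by exact permutation with numpy 2.4.6, and scipy 1.17.1 gave the exact binomial intervals. Floors used 3 counts, and the tests were tried on simulated data. Named genes were the rule genes, the 25 highest and 10 lowest ratios with at least 50 UMIs or 1000 CPM, all called genes, and members of gene lists. Of 31053 listed genes 30934 matched GENCODE M21. The monocyte rule and lists were chosen with earlier results of these data known. Alternatives changed the filters, normalization, rule, depth, batch term and libraries. Values of 2 members of the lists are not reported here.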

Additional observations from a re-analysis of the deposited data

Results flagged for a closer look

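The edgeR fit of the response difference called 3 genes. The change in question was that of ENZ-NONE against the mean of the other 3 groups. It was compared between the monocyte-marked barcodes and the other kept barcodes of the same mice. The difference was 3.01 on the log2 scale for Cd74, with 2.83 in the monocyte-marked barcodes and -0.08 in the others. It was -3.13 for Fos, with 4.10 in the monocyte-marked barcodes and 7.80 in the others. It was 2.98 for Chil3, with -0.34 in the monocyte-marked barcodes and -3.50 in the others. With the other sums thinned to the depth of the monocyte sums the Fos difference was -2.77 and no longer called, and the Chil3 difference was -0.0137. Cd74 and Chil3 were used to choose the barcodes, so their differences are descriptions. Fos passed the filter on low counts only through its ENZ-NONE level in the monocytes, so its difference is a description too. Groups of 3 mice were too small for a test of single outlying libraries.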

How the results depend on the processing

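Fos, Dusp1, Junb, Jun and the rule gene Cd74 were called in ENZ-NONE against the mean of the other 3 groups without each library in turn, with log2 values of 3.57 to 5.60, 4.58 to 5.81, 2.35 to 3.60, 3.89 to 5.25 and 2.49 to 5.37. Fos, Dusp1 and Jun passed the filter on low counts only through ENZ-NONE, and Cd74 helped to choose the barcodes. Their repeated calls are therefore a description and not support. The counts of called genes moved more. For ENZ-NONE against the mean of the other 3 groups the count of 8 became 5 with no filter on low counts and 3 with DESeq2, and it was 6 to 10 with single libraries left out. Against ENZ-INHIB the count of 2 became 0 with no filter, 1 with only libraries of at least 3 monocyte-marked barcodes and 0 with DESeq2 (0 to 2 with single libraries left out). Against DNC-NONE the count of 5 became 11 with no filter, 3 without the neutrophil-marked barcodes, 13 with only libraries of at least 3 and 2 with DESeq2 (3 to 16). Against DNC-INHIB the count of 6 became 3 with no filter, 3 with only libraries of at least 3 and 1 with DESeq2 (3 to 6), and it was 5 with batch as a covariate. For DNC-NONE against DNC-INHIB the count of 0 became 9 with no filter, 3 with batch as a covariate and 10 with only libraries of at least 3 (0 to 9). For ENZ-INHIB against DNC-INHIB the count of 1 became 0 with no filter, with batch as a covariate, with only libraries of at least 3 and with DESeq2 (0 to 1). For ENZ-INHIB against DNC-NONE the count of 0 became 8 with no filter and 9 with only libraries of at least 3 (0 to 7). The 9 genes called with no filter in DNC-NONE against DNC-INHIB, all higher, were Camp, Hmgn2, Lcn2, Ltf, Ngp, Pglyrp1, S100a8, S100a9 and Wfdc21. All UMIs of Camp, Lcn2, Ltf, Ngp and S100a9, 1390 of 1403 of S100a8 and 42 of 49 of Pglyrp1 lay in the 3 neutrophil-marked barcodes. The response difference called 1 gene in place of 3 with the other sums thinned, 1 with no filter and 1 to 3 with single libraries left out.

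For shares, the enzymatic minus Dounce difference ranged from -0.147 to 0.0906 percentage points with single libraries left out, the difference without minus with inhibitors from 0.161 to 0.348, and the ENZ-NONE minus other difference from -0.0922 to 0.193. The last was -0.0252 when 2 of the 6 rule genes sufficed. The Cd74 difference between ENZ-INHIB and DNC-INHIB ranged from -4.09 without ENZ-INHIB replicate 1 to 4.37 without ENZ-INHIB replicate 2, and the Chil3 response difference turned to -0.0137 with thinned sums. The alternatives that left out neutrophil-marked barcodes or used only libraries of at least 3 were chosen after seeing the data. Where nothing above names a cause, the cause was not tested.

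The labels number replicates 1 to 3 in DNC-NONE and ENZ-INHIB and 4 to 6 in DNC-INHIB and ENZ-NONE. Same-numbered libraries did not deviate together (correlations of 0.0482, 0.00963 and 0.102 for numbers 4, 5 and 6, and -0.034 and -0.0711 for 1 and 2), so the numbers were not taken as pairs. With the replicate block ENZ-NONE against DNC-INHIB gave 6 called genes and ENZ-INHIB against DNC-NONE 0, the counts without it. Fits on libraries with at least 10 monocyte-marked barcodes could not be made, since only DNC-NONE replicate 1 and ENZ-NONE replicate 6 had as many. Sums of 1364 to 53196 UMIs limit detection: 660 genes could be tested, and a missed threshold does not show equal levels.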
